A study of Mus musculus with 6 samples.

Results

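Myosin light chains are small proteins of the EF-hand family that wrap around the neck of the myosin heavy chain. Each heavy chain carries an essential and a regulatory light chain, which stiffen the neck and tune the force and speed of the motor. The regulatory chains are phosphorylated by myosin light chain kinases and dephosphorylated by a myosin phosphatase. In the mouse heart Myl2 and Myl3 are known as the ventricular regulatory and essential chains, and Myl7 and Myl4 as the atrial ones, but the early heart tube uses the atrial chains in the ventricle too.

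The 9 genes described here were chosen by name: the regulatory chains Myl2, Myl7 and Myl9, the essential chains Myl1, Myl3, Myl4 and Myl6, and the kinases Mylk and Mylk3. All 9 were found among the 23284 genes of the deposited table. RNA-seq was made from the heart ventricles of C57BL/6 embryos at E9.5, 3 in the WT group and 3 in the KD group. All embryos were tetraploid chimeras, in which the embryo proper grows from injected ES cells. The WT group came from wildtype ES cells, and the KD group from ES cells of genotype Tbx5ua -/-, in which tandem polyadenylation signals in an exon of both alleles end transcription of this long non-coding RNA early. The selection cassettes had been removed with Cre, and how many ES cell lines the 3 KD embryos came from is not given in the sources used here. Tbx5ua lies next to the transcription factor gene Tbx5; its own level is not analysed here, so the labels were not checked by it.

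The deposited table holds 1 value per gene for the WT group and 1 for the KD group, in FPKM, a fragment count scaled to the length of the transcripts and the size of the library, and no value for single embryos. No difference below has a replicate check, since these values alone allow no SD, interval or test, and the p-values in the table were not used. The depth of the libraries is unknown. FPKM is scaled to transcript length, and on that basis levels are set side by side between genes below. Whether the scaling removes all effects of length and amplification was not tested. Very short genes such as Mir703 and Snord12 stood at 10254 and 7617 FPKM in WT. Ranks, shares and ratios between genes share this limit. Ventricles are mixtures of cells, in which fewer cells of a type and less RNA per cell cannot be told apart. The tissue label was checked against markers. All 7 cardiomyocyte markers were present, with a summed level of 8604 FPKM in WT against 8406 in KD. Of the ventricular transcription factor genes, Irx4 had 31.8 FPKM in WT against 27.6 in KD, and Hey2 31.2 in WT against 34.0 in KD. The FPKM of all genes summed to 859452 in WT and 877889 in KD, without 2 genes listed at 0 with a mark for too many reads, the cardiac actin gene Actc1 and the ribosomal RNA gene Rn45s.

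The coding sequence around the phosphorylated serine sets the regulatory chains apart from the essential ones. It is shown because it is the site where the kinases act. The bases run 5′ to 3′ and come from GENCODE release M21 transcripts (GRCm38), and capitals mark the serine codon, which is codon 15 in Myl2, 23 in Myl7 and 20 in Myl9.
Myl2: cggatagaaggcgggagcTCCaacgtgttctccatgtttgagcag
Myl7: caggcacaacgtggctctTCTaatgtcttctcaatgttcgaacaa
Myl9: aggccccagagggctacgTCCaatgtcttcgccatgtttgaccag

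In this window of 45 bases, Myl2 and Myl7 shared 28 bases, Myl2 and Myl9 29, and Myl7 and Myl9 28. The 4 residues serine, asparagine, valine and phenylalanine, which these codons encode from the capitals on, were encoded in 0 of the 4 essential chains. Over the whole coding sequence the 3 regulatory pairs were 62.2% to 65.2% identical at aligned bases, and the 6 essential pairs 70.7% to 78.1%, the highest being Myl3 with Myl4. The 12 pairs made of a regulatory and an essential chain were 54.9% to 59.8% identical. The essential chains differ in length in the transcripts compared: Myl3 has 204 codons, Myl4 193, Myl1 188 and Myl6 151. The 3 chains of striated muscle are thus longer than Myl6, the chain of smooth muscle and non-muscle cells. No pair of the 7 light chains shared an exact run of more than 29 bases over its transcripts, the length found between Myl3 and Myl4.

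**Figure D1:**
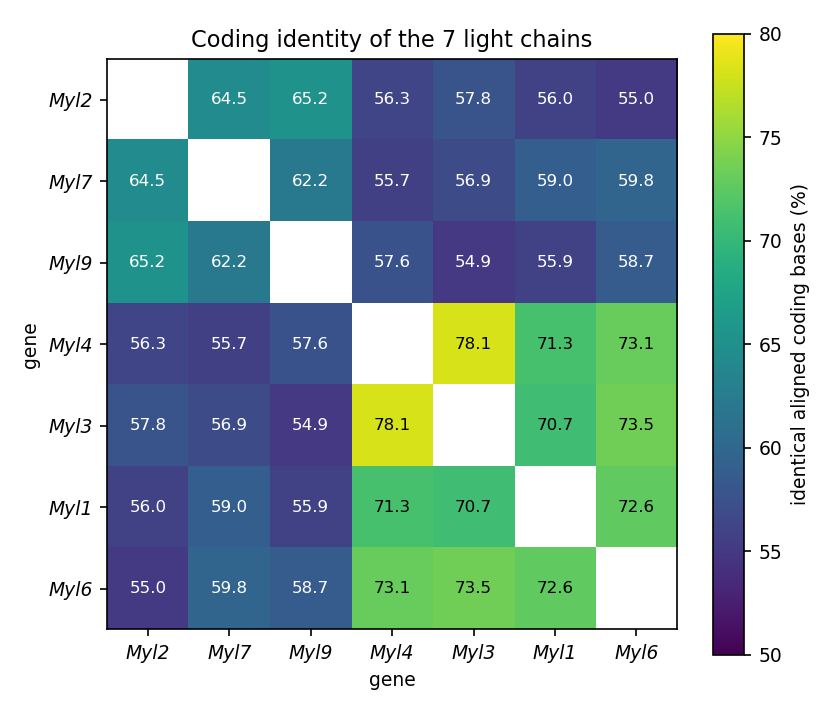
Percentage of identical bases at aligned coding positions for each pair of the 7 light chains, with genes on both axes. The essential chains form the block of highest values (70.7% to 78.1%), the regulatory chains a second block (62.2% to 65.2%), and the mixed pairs lie between 54.9% and 59.8%.

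The promoters of 3 light chains hold a CArG box, the site of serum response factor, an activator of muscle genes. They are shown because the box was the most frequent of the motifs searched in the members and is rare elsewhere. Of the 9 members, 7 had a RefSeq promoter (GRCm38.p6, 250 bases before to 50 after the gene's start) within 10 bases of the start in the deposited table, and those of Myl2 and Myl6 were not read. CArG boxes, searched on both strands, were found in 3 of these 7 and in 1.63% of 32851 promoters of the same length. Capitals mark the box, which lies 61 to 52 bases upstream of the start in Myl7, 85 to 76 in Myl3 and 161 to 152 in Myl9. The promoters are at chr11:5898733-5899032 on the minus strand, chr9:110763428-110763727 on the plus strand and chr2:156775214-156775513 on the plus strand, each printed 5′ to 3′ on the strand of its gene.
Myl7: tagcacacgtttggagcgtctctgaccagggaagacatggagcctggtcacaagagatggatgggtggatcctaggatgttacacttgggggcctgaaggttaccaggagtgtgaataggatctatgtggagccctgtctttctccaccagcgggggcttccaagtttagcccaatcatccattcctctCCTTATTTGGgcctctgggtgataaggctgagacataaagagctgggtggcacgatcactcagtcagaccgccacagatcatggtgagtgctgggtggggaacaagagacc
Myl3: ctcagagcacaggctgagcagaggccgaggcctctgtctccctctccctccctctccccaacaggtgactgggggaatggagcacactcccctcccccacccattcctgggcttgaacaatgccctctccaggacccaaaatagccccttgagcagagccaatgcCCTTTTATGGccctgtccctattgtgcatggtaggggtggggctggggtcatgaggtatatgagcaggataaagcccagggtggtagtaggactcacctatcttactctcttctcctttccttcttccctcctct
Myl9: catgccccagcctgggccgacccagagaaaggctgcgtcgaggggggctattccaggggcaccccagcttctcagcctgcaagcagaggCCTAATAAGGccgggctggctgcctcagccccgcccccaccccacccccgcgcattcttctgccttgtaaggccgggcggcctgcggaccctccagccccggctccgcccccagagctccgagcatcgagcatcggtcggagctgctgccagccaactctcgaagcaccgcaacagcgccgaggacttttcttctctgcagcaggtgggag

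The T-box core GGTGTG, sought because Tbx5 is the neighbour of the targeted RNA, was found in 0 of the 7 promoters and in 19.0% of all promoters. The run AGATAA, a form of the GATA site, was found in 0 of 7 and in 11.2% of all promoters. Other forms of the GATA site were not counted. TGATAA stands in the printed promoter of Myl7, and AGATAG on the opposite strand in that of Myl3. The MEF2 site was found in 0 of 7 and in 0.557%. The run TATAAA, the letters of the TATA box, was found in 1 of 7, that of Myl1, where it lies on the opposite strand 95 to 90 bases upstream, and in 13.6% of all promoters. None of these matches overlapped another. A match is a run of letters and not a measured binding site, and its absence holds for these letters and windows only.

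By FPKM, the light chains were among the most abundant transcripts of the ventricle. Together the 7 light chains held 4.65% of the summed FPKM in WT and 4.64% in KD. Myl7 ranked first in both groups among the genes with a measured level, which leaves out Actc1 and Rn45s, and Myl2 ranked second. The 9 members kept the same order in both groups: Myl7, Myl2, Myl4, Myl3, Myl6, Myl9, Myl1, Mylk3 and Mylk. With 1 value per group, which neighbours in that order differ beyond the spread of embryos cannot be said. Myl7 and Myl2 stood closest in KD, where their ratio was 0.984.

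**Figure D2:**
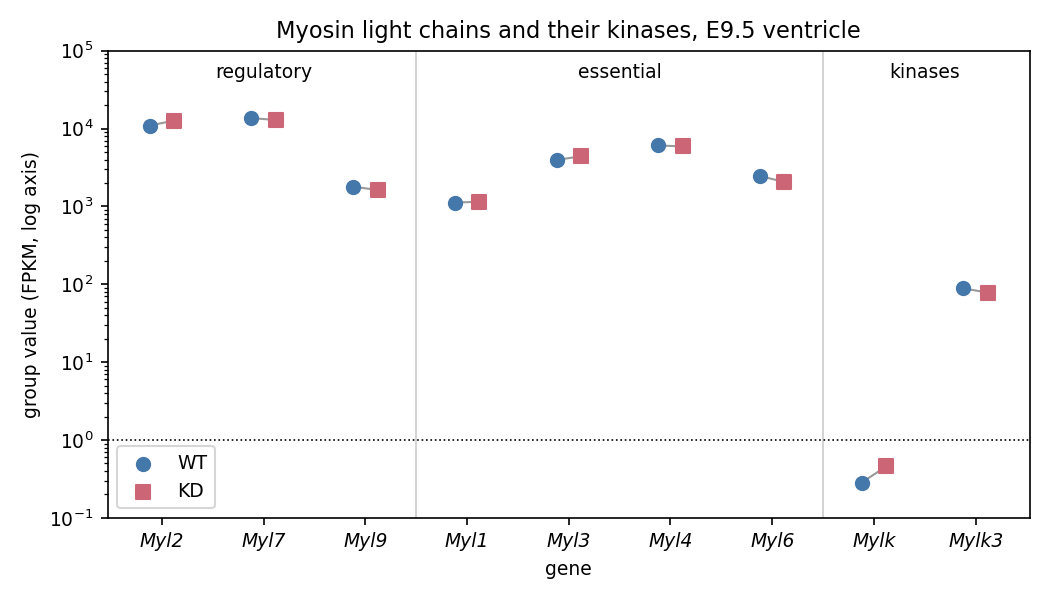
Group value of each member (FPKM, log axis) in WT (circles) and KD (squares), 1 value per group; the dotted line marks an FPKM of 1. The 7 light chains lie above 1000 FPKM in both groups, Mylk3 between 78.1 and 88.7 FPKM, and Mylk below 1 FPKM.

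In the KD group 0 of the 8 members that reached 1 FPKM in WT or KD differed from WT by more than 1.5-fold, measured as log2((KD + 1)/(WT + 1)). Over all 11606 genes that did so 425, or 3.66%, were past 1.5-fold, 2.20% (255 genes) higher and 1.46% (170 genes) lower in KD. Among the 178 genes with a mean FPKM of at least 1000, the range of the light chains, the share was 2.81%, made up of 5 small nucleolar RNA genes, a class unlike the members. A count of 0 in 8 is near these shares. Centred on the cardiomyocyte markers instead, 333 of all genes were higher and 138 lower. The 8 members had log2 differences from -0.26 to 0.22 with a median of -0.06, against a median of 0.0043 for all genes. Of the 8, 3 were above 0 and 5 below. Mylk was left out of this count because it stayed below 1 FPKM in both groups.

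**Figure D3:**
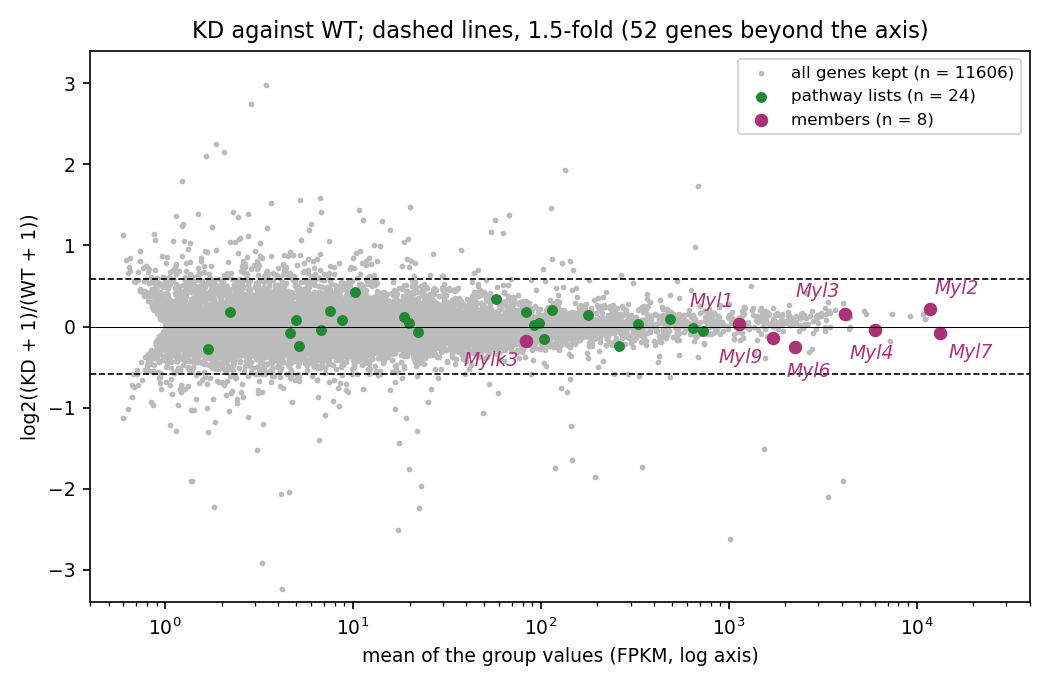
Log2 difference of KD over WT with 1 FPKM added, against the mean of both group values (FPKM, log axis); each point is a gene, dashed lines mark 1.5-fold, and 52 genes lie beyond the vertical axis. The 8 members lie between -0.26 and 0.22, at the right end of the range of levels except for Mylk3.

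Myl2, the ventricular regulatory chain (chromosome 5 from 122100980 to 122106854), had 10924 FPKM in WT against 12702 in KD. It was 16.3% higher in KD, a log2 difference of 0.22 and the highest of the members. Myl7, the atrial regulatory chain (chromosome 11 from 5896637 to 5898782), had 13643 FPKM in WT against 12907 in KD. It was 5.39% lower in KD (log2 difference -0.08), so the distance between the chains narrowed from the ratio Myl2/Myl7 of 0.801 in WT to 0.984 in KD. On the log2 scale this ratio was 0.30 higher in KD, a difference that no scaling of a whole group can change. Myl9, the regulatory chain of smooth muscle and non-muscle myosin (chromosome 2 from 156775464 to 156781657), had 1796 FPKM in WT against 1627 in KD (log2 difference -0.14).

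As a share of the 3 regulatory chains, Myl2 made up 41.4% of the summed FPKM in WT and 46.6% in KD. Myl7 made up 51.7% and 47.4%, and Myl9 6.81% and 5.97%. The class as a whole summed to 26364 FPKM in WT against 27236 in KD. Myl7 was the larger part in both groups, and Myl2 came near to it in KD.

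Among the essential chains, Myl4, the atrial and embryonic chain (chromosome 11 from 104550663 to 104587219), had 6082 FPKM in WT against 5896 in KD. Its log2 difference of -0.04 was the only one of the 8 members counted whose sign changed under another scaling, to 0.0059 when the median of the cardiomyocyte markers was subtracted. Myl3, the ventricular chain (chromosome 9 from 110763681 to 110769794), had 3955 FPKM in WT against 4407 in KD (log2 difference 0.16). The ratio Myl3/Myl4 was 0.650 in WT and 0.747 in KD, 0.20 higher on the log2 scale. As for the regulatory chains, the ventricular chain stood nearer to the atrial one in KD, and whether either ratio differs beyond the spread of embryos was not tested. The ventricular markers went both ways, with log2 differences of -0.20 for Irx4 and 0.12 for Hey2.

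Myl6, the essential chain of smooth muscle and non-muscle myosin (chromosome 10 from 128490861 to 128493825), had 2462 FPKM in WT against 2059 in KD. It was 16.3% lower in KD, a log2 difference of -0.26 and the lowest of the members. Of the 178 genes with a mean FPKM of at least 1000, 5% lay below -0.19 and 5% above 0.23, with a median of 0.09. Myl6 lay below the lower of these limits and the other 6 light chains between them, which describes these 2 group values and is no test. Myl1, an essential chain of fast skeletal muscle (chromosome 1 from 66924296 to 66945056), had 1122 FPKM in WT against 1147 in KD (log2 difference 0.03).

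Of the summed FPKM of the essential chains, Myl4 held 44.7% in WT and 43.6% in KD, and Myl3 29.0% and 32.6%. Myl6 held 18.1% and 15.2%, and Myl1 8.24% and 8.49%. The class summed to 13620 FPKM in WT against 13510 in KD. The regulatory sum was 1.94 times the essential sum in WT and 2.02 times in KD, and 2.20 and 2.24 times when only the striated muscle chains of both classes were taken.

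**Figure D4:**
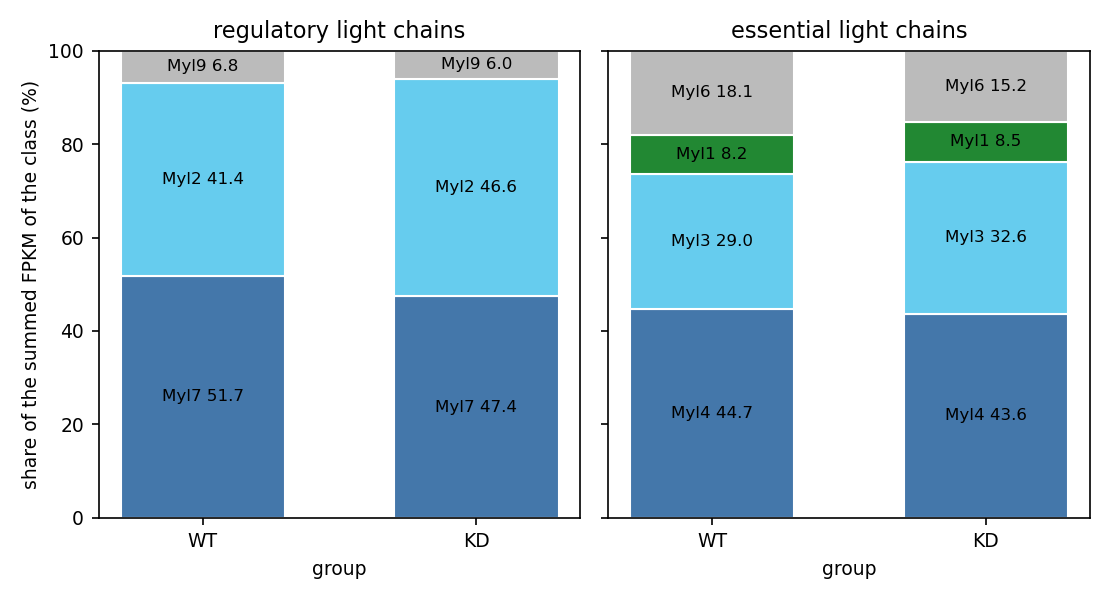
Share of each chain in the summed FPKM of its class (%, stacked bars), for the regulatory (left) and essential (right) light chains in WT and KD. Myl2 went from 41.4% to 46.6% of its class and Myl3 from 29.0% to 32.6%, with Myl7 and Myl6 smaller in KD.

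Of the kinases, Mylk3 is the cardiac myosin light chain kinase (chromosome 8 from 85324929 to 85365324). It had 88.7 FPKM in WT against 78.1 in KD, a log2 difference of -0.18. Mylk encodes the kinase of smooth muscle and non-muscle cells (chromosome 16 from 34784950 to 35002434) and was at 0.284 FPKM in WT against 0.457 in KD. Mylk3 was thus above Mylk in both groups. The ratio of their values was 312 in WT and 171 in KD, but with Mylk below 1 FPKM neither is an exact fold. The ratio of KD to WT for Mylk was 1.61, but with 1 FPKM added its log2 difference was 0.18, and at this level and with unknown depth no call can rest on it.

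The Mylk value has a second limit, because its row shares a locus in the table with 2 antisense transcripts. E130310I04Rik, annotated on the minus strand inside Mylk from 34943175 to 34958994, had 5.58 FPKM in WT against 4.54 in KD, above Mylk itself. 1700119H24Rik had 0.0335 FPKM in WT against 0.264 in KD. Smart-Seq2 libraries do not mark the strand, so reads where these genes overlap Mylk cannot be told apart from its own. No row of another gene overlapped the loci of the other 8 members.

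The genes nearest to the top members in level were sought over the 2 group values, as the distance in log2(FPKM + 1). For Myl3 they were the ribosomal protein genes Rplp1 and Rpl38 and the mitochondrial gene Usmg5, all within 0.06. For Myl4 they were Mif (0.26), Rps29 (0.32) and Snord12 (0.38). For Myl2 they were Gm20594 (0.16), Mir703 (0.18) and Myl7 (0.32), and for Myl7 they were Myl2 (0.32), Gm20594 (0.39) and Mir703 (0.45). With only 2 values per gene this likeness says little more than that the levels are alike.

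Around the members, 29 genes of other light chains, other kinases, calmodulins, the phosphatase and the heavy chains were taken as the pathway. Of these, 24 reached 1 FPKM and 0 were past 1.5-fold in either direction, against 3.66% of all genes. Their log2 differences ran from -0.28 to 0.43 with a median of 0.04. Of the 24, 15 lay above 0 and 9 below.

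Of the other light chains, Myl12a, a regulatory chain of non-muscle myosin, was the most abundant, with 652 FPKM in WT against 642 in KD. Its neighbour Myl12b had 106 FPKM in WT against 123 in KD. Their coding sequences were 96.5% identical and their transcripts shared an exact run of 120 bases, so the split of reads between them is uncertain. Myl9 was 85.7% and 86.4% identical to Myl12a and Myl12b in coding sequence, with runs of 35 bases shared by the transcripts. Mylpf, the regulatory chain of fast skeletal muscle, had 90.9 FPKM in WT against 92.0 in KD, while Myl6b was below 0.3 FPKM and Myl10 was listed at 0. The skeletal muscle regulators Myod1, Myog, Myf5, Myf6 and Pax7 were all listed at 0 in both groups, beside the levels of Mylpf and Myl1.

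Of the 8 other kinases that can act on the regulatory chains, 6 reached 1 FPKM, with log2 differences from -0.28 for Cit to 0.20 for Cdc42bpb. Dapk3, a calcium-independent kinase, was the most abundant with 17.9 FPKM in WT against 19.4 in KD, while Mylk2 and Mylk4 stayed below 0.12 FPKM. Calmodulin, which activates both Mylk and Mylk3, was made mainly from Calm2, with 745 FPKM in WT against 715 in KD. The 3 calmodulin genes and Rhoa, whose product restrains the phosphatase through the kinases Rock1 and Rock2, lay between -0.06 and 0.15.

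Of the phosphatase genes all 7 were kept. The catalytic subunit gene Ppp1cb had 110 FPKM in WT against 98.7 in KD. The inhibitor genes Ppp1r14a (8.57 and 11.9 FPKM, log2 difference 0.43) and Ppp1r14b (50.7 and 64.6 FPKM, log2 difference 0.34) were the highest of the pathway, both short of 1.5-fold. Of the 7 phosphatase genes, the targeting subunit gene Ppp1r12b was the lowest, at -0.24. The most abundant heavy chain was Myh7, with 470 FPKM in WT against 500.4 in KD.

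**Figure D5:**
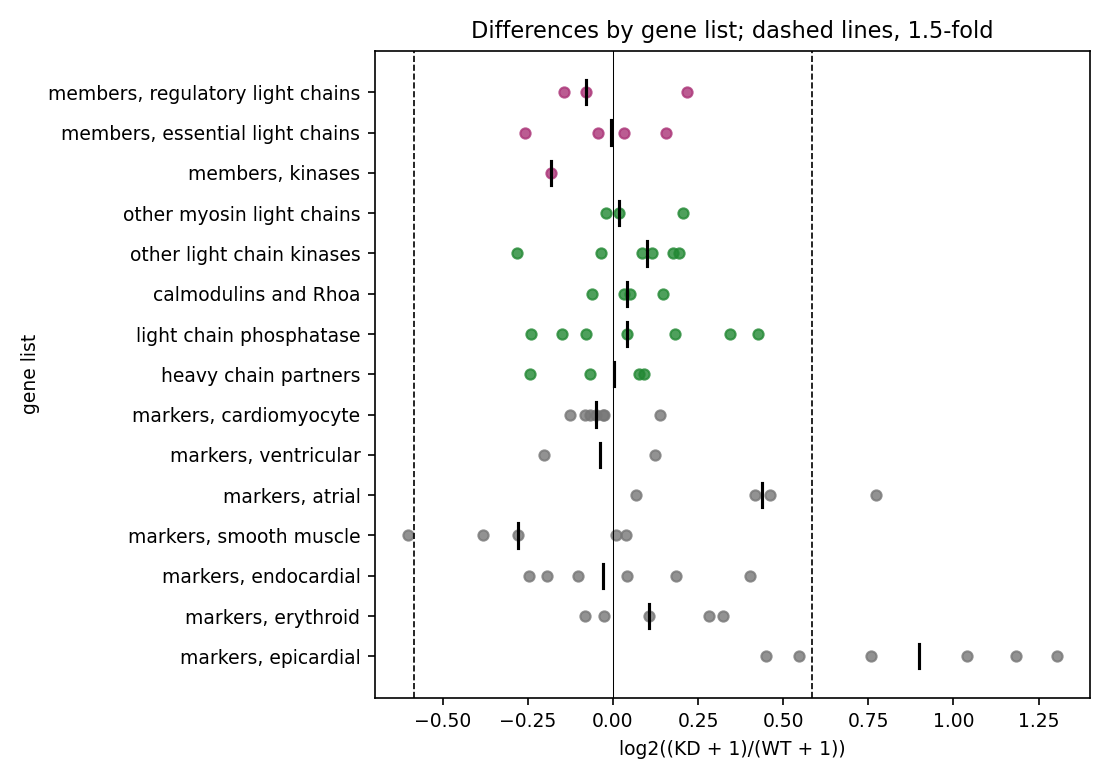
Log2 difference of KD over WT with 1 FPKM added, for each gene of the listed groups that reached 1 FPKM; black bars are medians and dashed lines mark 1.5-fold. Members and pathway genes lie inside the dashed lines, while 4 epicardial, 1 atrial and 1 smooth muscle marker lie outside.

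Markers of other cells were set beside the members. Of the smooth muscle markers, whose cells use Myl9 and Myl6, 5 of 6 reached 1 FPKM and had a median log2 difference of -0.28, and their levels summed to 3722 FPKM in WT against 3005 in KD. Acta2 had 3045 FPKM in WT against 2512 in KD (-0.28), Tagln 400.3 and 263 FPKM (-0.60, past 1.5-fold) and Cnn1 201 and 154 FPKM (-0.38). Myh11, the heavy chain that defines smooth muscle, was at 0.258 FPKM in WT against 0.0402 in KD, and early cardiomyocytes also make Acta2, Tagln and Cnn1. Smtn (26.9 and 27.7 FPKM) and Myocd (48.0 and 48.3 FPKM) were close to equal. Acta2, Tagln and Cnn1 were lower in KD together with Myl9 and Myl6, and their part in those values was not tested.

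Of the atrial markers 4 of 5 reached 1 FPKM, of which Nr2f1 (0.552 and 1.07 FPKM) and Vsnl1 (0.555 and 1.14 FPKM) did so in KD only, and the list summed to 9.70 FPKM in WT against 13.3 in KD. Nr2f2 was past 1.5-fold with 2.01 FPKM in WT against 4.15 in KD, Stard10 was the most abundant (6.58 and 6.95 FPKM), and Sln was listed at 0. The 6 epicardial markers were all above 0, with 4 of them past 1.5-fold and higher in KD, against 2.20% of all genes. Of the 6, Aldh1a2 (0.872 and 1.74 FPKM) reached 1 FPKM in KD only. The epicardial list summed to 47.0 FPKM in WT against 95.9 in KD, with Tcf21 at 11.9 and 25.5 FPKM. Endocardial markers had a median of -0.03 and erythroid markers one of 0.11, with sums of 118 to 128 FPKM and 11438 to 11518 FPKM. Emcn (43.1 and 57.4 FPKM) had the highest mean of the endocardial list and Hba-x (4401 and 4318 FPKM) that of the erythroid list, although Hbb-y was above it in KD (4138 and 4453 FPKM). Of the hepatic and yolk sac markers 0 of 4 reached 1 FPKM, Ttr being the highest with 0.425 and 0.790 FPKM and Alb listed at 0. The part of these markers in the values of the members was not tested.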

How the data were processed

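Libraries were made by the Smart-Seq2 protocol from 10 ng of total RNA per sample, with 12 cycles of preamplification and 9 of enrichment PCR, and sequenced as single ends. The submitters' processing notes name TopHat, Bowtie2 and Cuffdiff and the genome build mm10; versions and gene annotation are not given in the sources used here. The authors deposited 1 Cuffdiff table with an FPKM value per gene for the 3 WT embryos and 1 for the 3 KD embryos, headed KO there. These group values are the authors' own; the table's fold changes, p-values and q-values were not used, and 0 columns of single samples were present. Whether samples of a group came from separate litters or clones is not stated.

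Differences were computed as log2((KD + 1)/(WT + 1)) over the genes that reached 1 FPKM in WT or KD, and a gene was counted past 1.5-fold on that scale. Genes marked as having too many reads were left out. Named were all members, pathway genes past 1.5-fold or most abundant in their list, the most abundant markers and those listed at 0, the nearest genes in level and genes sharing a member's locus; any other gene was picked with its values in view. The members and lists were chosen with earlier results of these data known.

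Table starts count from 0 and are given with 1 added: 9652 genes then matched a GENCODE transcript start, against 944 without. Coding sequences of 1 GENCODE transcript per gene were aligned globally with Biopython 1.88, with free end gaps; the planned comparison of proteins was not made. Python 3.11.15, NumPy 2.4.6, pandas 2.3.3 and Matplotlib 3.10.9 were used. Alternatives changed the pseudocount, filter, scaling, fold and the chains summed.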

Additional observations from a re-analysis of the deposited data

How the results depend on the processing

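The count of 0 members past 1.5-fold stayed at 0 with a pseudocount of 0.1 or none, with no filter or stricter filters, with each of the 3 other scalings and with the limit set at a difference of 25% or at 2-fold. With neither pseudocount nor filter, chosen after seeing the data, it became 1 (Mylk) and the pathway count 3 (Mylk2, Mylk4 and Myh11), all below 0.5 FPKM in both groups. At 25% the pathway count was 2 of 24 (Ppp1r14a and Ppp1r14b), against 15.2% of all genes. Stricter filters and the 2-fold limit cannot raise a count of 0 members. A pseudocount of 1 FPKM or less hardly enters for the 8 members, which all had at least 78.1 FPKM. Those settings are thus no check of the member count. The 425 genes past 1.5-fold became 880 with a pseudocount of 0.1, 891 with none, 1764 at 25%, 142 at 2-fold, 260 among genes that reached 1 FPKM in each group, 158 among those that reached 10 FPKM in WT or KD, and 3321 with neither pseudocount nor filter, all by construction. With no spread between embryos, a log2 value was counted as moved past 0.1 and a share past 1 point. No difference of the 8 members counted or of the shares of Myl2 and Myl3 moved. The Myl4 share did: with only striated muscle chains summed, its change from WT to KD went from -1.01 to -3.01 points. The change of Myl1 then turned from 0.25 to -0.04 points, and that of Myl7 went from -4.36 to -5.13, both within 1 point. The ratios Myl2/Myl7 and Myl3/Myl4 did not move when 1 FPKM was added. The chains summed do not enter a ratio of 2 genes, so those alternatives could not change it. The log2 difference of Mylk was 0.18 without the filter and 0.69 with neither filter nor pseudocount. No paired analysis was possible because embryos have no columns of their own, and leaving out single embryos could not be run for the same reason. Coding identity with gaps counted was 59.7% to 61.5% for regulatory pairs, 53.6% to 73.2% for essential pairs and 41.5% to 47.4% for mixed pairs. The essential pairs with Myl6, at 53.6% to 58.3%, then lay below every regulatory pair, and the other essential pairs stayed above them. Since the depth is unknown, little can be said of Mylk and other genes below 1 FPKM.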

Other observations

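The cardiac heavy chains that the light chains bind also form a pair of isoforms. Myh7, the heavy chain of slow and ventricular myosin, had 470 FPKM in WT against 500.4 in KD, and Myh6, the atrial and adult ventricular heavy chain in the mouse, 284 FPKM in WT against 239 in KD. Their ratio Myh7/Myh6 was 1.66 in WT and 2.09 in KD, 0.34 higher on the log2 scale, beside 0.30 for Myl2/Myl7 and 0.20 for Myl3/Myl4. Myh6 and Myh7 lie close together on chromosome 14. Their sequences were not compared, so the split of reads between them was not checked. All 3 ratios come from the same 2 group values, so they do not support each other independently, and none was tested against the spread of embryos.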
